A study of Homo sapiens with 6 samples.

Results

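Small nucleolar RNA host genes are genes whose introns carry small nucleolar RNAs (snoRNAs). The 31 genes described here were chosen by name, as every gene with the symbol SNHG and a number plus GAS5, ZFAS1 and EPB41L4A-AS1, out of 60651 gene rows counted in SK-N-AS cells. SK-N-AS is a human neuroblastoma line, long in culture, without MYCN amplification. The cells carried a MYCN transgene under a tetracycline repressor system in all 6 libraries and came from clones kept under G418 and blasticidin. The labels do not say how many clones were sequenced. In 3 control libraries, labelled ETOH, the transgene was left off. In 3 MYCN-induced libraries tetracycline had been added for 120 h, or 5 days in the labels' treatment text. Ribosomal RNA was removed enzymatically and the remaining total RNA was sequenced as read pairs. The groups thus differ in tetracycline as well as in MYCN, and no library had tetracycline without the transgene. Differences due to the drug and to MYCN cannot be told apart here. The question addressed is whether the host genes and the snoRNAs inside them differed in level between the control and MYCN-induced libraries.

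After splicing, the debranched intron is trimmed to a snoRNA. Box C/D snoRNAs (SNORD) guide ribose methylation and box H/ACA snoRNAs (SNORA) guide pseudouridylation, mostly of ribosomal RNA, while scaRNAs act on spliceosomal RNA in Cajal bodies. The exons that remain are often a long non-coding RNA. Many such exon products are degraded by nonsense-mediated decay (NMD) when ribosomes engage them, and many start with a run of pyrimidines (a terminal oligopyrimidine tract), as the messages of ribosomal proteins do. A host gene's exon level and its snoRNA level can therefore be set at different steps. Counts on host and snoRNA genes were taken from the same libraries here. A pair on a snoRNA gene can come from the finished snoRNA or from host RNA that still holds it. The counts do not separate these sources, so a level given below for a snoRNA gene is not that of the finished snoRNA alone.

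Only SNHG14 among the host genes passed the test. It is the long transcript of the paternally expressed Prader-Willi region on chromosome 15, and 84 of the 144 snoRNA and scaRNA genes found inside the 31 host genes lie within it. Of these, 30 are SNORD116 copies and 49 are SNORD115 copies. SNORD116 is the box C/D family whose loss from the paternal chromosome is linked to Prader-Willi syndrome. The sequences of the 5 SNORD116 copies that passed the test are shown first. With all 6 libraries, edgeR called only these copies and SNHG14 among the hosted snoRNAs and the host genes. The calls of the copies depended on single libraries, as described below. They are given in order along chromosome 15, on the plus strand of GRCh38, with box C (TGATGA) and box D (CTGA) in capitals. These boxes are the short motifs that the methylation complex binds.
SNORD116-13 (chr15:25079058-25079149): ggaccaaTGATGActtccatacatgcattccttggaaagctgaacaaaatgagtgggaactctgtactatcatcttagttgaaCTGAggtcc
SNORD116-17 (chr15:25083588-25083679): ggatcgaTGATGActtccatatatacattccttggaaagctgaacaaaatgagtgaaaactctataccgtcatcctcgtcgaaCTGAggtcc
SNORD116-18 (chr15:25085385-25085476): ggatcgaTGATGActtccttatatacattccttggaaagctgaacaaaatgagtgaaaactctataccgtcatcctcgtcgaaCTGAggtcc
SNORD116-19 (chr15:25086527-25086618): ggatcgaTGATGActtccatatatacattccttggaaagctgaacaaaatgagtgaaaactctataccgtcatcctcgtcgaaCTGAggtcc
SNORD116-21 (chr15:25088804-25088895): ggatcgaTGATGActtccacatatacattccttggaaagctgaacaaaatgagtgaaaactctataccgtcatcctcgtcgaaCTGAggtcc

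Each of these copies is 92 bases long, with box C starting at base 8 and box D at base 84. SNORD116-17 and SNORD116-19 have the same sequence, SNORD116-18 and SNORD116-21 each differ from it by 1 base edit, and SNORD116-13 differs by 12. Across the 30 copies, 28 hold TGATGA in their first 20 bases, all 30 hold CTGA in their last 15 bases, and 27 sequences are distinct. The header of the deposited counts names only pairs that aligned to a single place. The paper's methods list an option that counts multiply aligned reads, beside a mapping quality limit, and the header was followed here. A pair lying wholly inside the bases shared by SNORD116-17 and SNORD116-19 has more than 1 place to align. If the header holds, the pairs counted for these copies reached sequence outside them.

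Counted pairs per library ran from 64500589 to 102249336. They are estimated counts, because pairs falling on more than 1 gene were divided equally among those genes, and the counting program's header names no strand option. Levels are given as CPM (read pairs scaled to library size after TMM normalization), and as TPM (scaled to exon length too) where genes are compared per length. Fold changes are log2 values of MYCN-induced over control from edgeR's quasi-likelihood test over the 29086 genes that reached 10 counts in 3 or more libraries, and a gene was called at a Benjamini-Hochberg adjusted p under 0.05. MYCN stood at 30.3, 35.5 and 32.4 CPM in the controls and at 211, 221 and 199 CPM in the induced libraries, which is the direction the labels give. On the first principal component (50.5% of the variance) MYCN-induced replicate 3 was the outermost library at 40.2, where induced replicates 1 and 2 scored 6.27 and 6.31 and the controls scored from -24.2 to -12.7. Summed neuroblastoma lineage markers ran from 908 to 1290 CPM over the 6 libraries, CHGB was called lower on induction, and HAND1 was near 0. Mesenchymal markers summed to between 471 and 565 CPM, with FN1 the only 1 of 5 tested that was called (lower) and CD44 at 0 in every library. The calls of CHGB and FN1 were lost when any single control library was left out. Markers of other cell types summed to between 1.83 and 2.99 CPM. In bulk RNA, a change in the number of cells that express a gene and a change in the RNA per cell cannot be told apart.

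The host genes covered a wide range of levels. On the TPM scale, 15 of the 31 exceeded 10 TPM on average and the highest stood at 112 TPM. SNHG3 was the most abundant per length at 111 TPM ± 4.99 in the controls (SD, n = 3), followed by GAS5 at 95.7 ± 6.25 and SNHG16 at 91.6 ± 8.30. The SDs of GAS5 and SNHG16 spanned the gap between them. SNHG6, SNHG8 and SNHG1 followed at 47.8 ± 0.747, 44.5 ± 2.22 and 41.4 ± 2.29 TPM. SNHG14 was long and low per length, at 2.51 ± 0.271 TPM over 122609 exon bases, and for that reason it ranked high in CPM and low in TPM. SNHG18, SNHG27 and SNHG28 did not pass the count filter. SNHG18 had 0 counts in every library except 4 in MYCN-induced replicate 3, SNHG27 had 0 to 3 counts per library, and SNHG28 had at most 1.17.

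**Figure D1:**
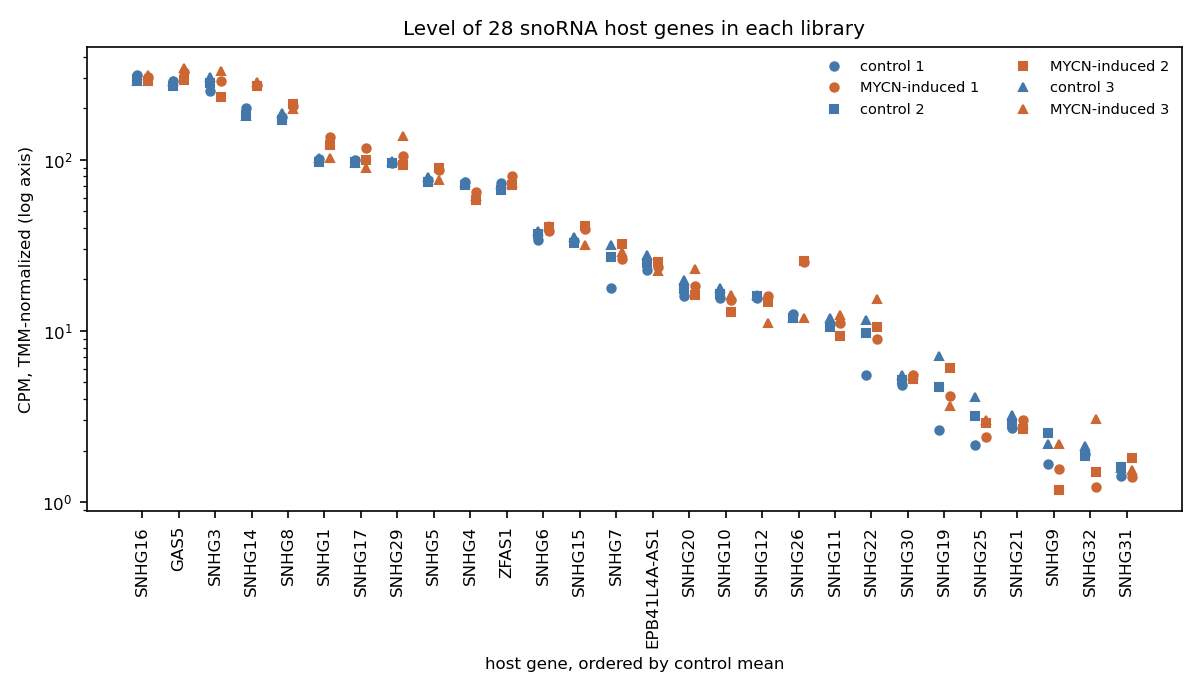
Level of each of the 28 tested host genes in each library, in CPM on a log axis, ordered by the control mean; blue marks are control libraries, orange marks MYCN-induced libraries, and the marker shape gives the replicate number. For most genes the 2 colours lie on each other; SNHG14 stands at 179 to 199 CPM in the controls and 270 to 283 CPM in the induced libraries, and SNHG26 is high in induced replicates 1 and 2 only.

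Taken as a list, the host genes stayed close to their control levels. Of the 28 tested, 1 was called higher and 0 were called lower by edgeR, against 3.4% of all genes tested called in either direction (1.02% higher and 2.38% lower). At an unadjusted p under 0.05 the counts were 4 higher and 1 lower, where all genes gave 8.13% and 10.6%. DESeq2 called 2 host genes higher, SNHG14 and SNHG26, against 7.23% of all genes called by it (3.11% higher and 4.12% lower). The median log2 fold change was 0.073, beside -0.0 over all genes tested, and 18 of the 28 were above 0. The induced and control values did not overlap for 5 host genes (17.9%), 4 of them higher, while this held for 26.2% of all genes (11.5% higher and 14.7% lower). Per library, the median log2 level relative to the control mean came to -0.036, -0.016 and 0.071 for the controls and to 0.059, 0.02 and 0.056 for the induced cultures. The 95% interval of the change lay within a 1.5-fold difference in either direction for 20 of the 28, and within a 2-fold difference for 26. SNHG26 and SNHG22 were the exceptions to the 2-fold bound.

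**Figure D2:**
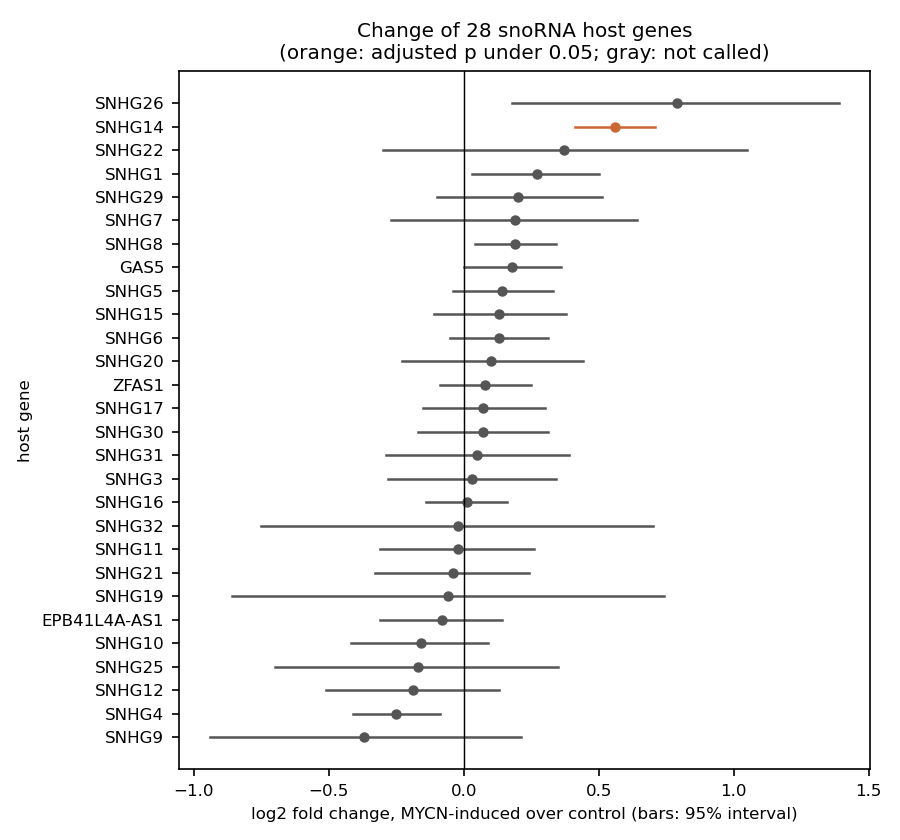
Log2 fold change of MYCN-induced over control for the 28 tested host genes (points) with 95% intervals (bars); orange marks an adjusted p under 0.05 and gray the genes not called. SNHG14 at 0.56 is the only gene called, and the wide bars belong to SNHG26 and to low genes such as SNHG22, SNHG19, SNHG32 and SNHG9.

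SNHG14 (ENSG00000224078.15, GRCh38 chr15:24978583-25420336, plus strand) stood at 199, 183 and 179 CPM in control replicates 1 to 3 and at 275, 270 and 283 CPM in the induced libraries. Every induced library was above every control library, and the induced libraries lay close together, replicate 3 included. The log2 fold change was 0.56 with a standard error of 0.07 (95% interval 0.41 to 0.71) and an adjusted p of 0.00716 in edgeR. The call was lost without control replicate 2 (0.54, adjusted p = 0.075 in edgeR) and without control replicate 3 (0.53, adjusted p = 0.0521 in edgeR), with little movement in the estimate. snoRNA genes that lie in annotated SNHG14 exons shared between 5.13% and 6.16% of its counts. With those pairs taken out, a calculation added after the data had been seen, the fold change was 0.55 (adjusted p = 0.00762 in edgeR).

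SNHG14 shares 11.5% of its exon bases with other genes, most of them transcripts of the same strand and region. SNRPN codes for an Sm-like protein of neuronal splicing particles and lies at the upstream end of the imprinted transcription unit. It stood at 13.9, 13.8 and 13.8 CPM in the controls and 20.8, 16.2 and 24.6 CPM in the induced libraries, a log2 fold change of 0.57 ± 0.15 (SE, adjusted p = 0.0844 in edgeR, not called). The overlapping gene ENSG00000214265 was called higher (0.56, adjusted p = 0.0473 in edgeR), as was the non-coding PWAR5 (0.50, adjusted p = 0.0491 in edgeR) and ENSG00000261069, which went from 3.74 to 7.49 CPM on average (adjusted p = 0.0102 in edgeR). PWAR1 stood at 0.90 without a call (adjusted p = 0.0564 in edgeR). ENSG00000257647, annotated on the opposite strand but within SNHG14 exons, was called higher as well (0.73, adjusted p = 0.0373 in edgeR). All of these share exon bases with SNHG14, so with pairs split between them their values are not separate measurements. Under the alternatives their adjusted p in edgeR or DESeq2 reached 0.21 for ENSG00000214265, 0.222 for PWAR5, 0.197 for ENSG00000257647 and 0.0756 for ENSG00000261069, each without control replicate 2. UBE3A, a ubiquitin ligase transcribed towards SNHG14 from the other strand, was measured at 201, 181 and 175 CPM in the controls and 188, 207 and 180 CPM in the induced libraries. These values overlap, and the UBE3A fold change was 0.05 with a 95% interval of -0.14 to 0.23 (adjusted p = 0.821 in edgeR).

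The snoRNAs inside SNHG14 differed in the same direction as their host. Many of them lie in annotated SNHG14 exons, including every called copy except SNORD116-17. Pairs there were divided with the host row, so these values are not separate measurements from those of the host. Of the 84, 29 passed the count filter, 25 of them SNORD116 copies, and all 29 had a log2 fold change above 0, with a median of 0.683 and a range of 0.04 to 1.08. Of the SNORD116 copies 5 were called higher, and no snoRNA of the cluster was called lower, against 1.02% and 2.38% of all genes tested. At an unadjusted p under 0.05 the counts were 16 and 0, against 8.13% and 10.6%. The induced and control values did not overlap for 17 of the 29 (58.6%), against 26.2% of all genes. These rows lie along 1 host and several copies are alike in sequence, so the counts do not describe unrelated genes. SNORD116-19 stood at 0.829, 0.839 and 0.943 CPM in the controls and 1.65, 1.66 and 2.21 CPM in the induced libraries (1.08 ± 0.17, SE, adjusted p = 0.0191 in edgeR). SNORD116-18 went from 0.866, 1.11 and 1.11 CPM to 1.63, 2.06 and 2.59 CPM (1.03 ± 0.20, SE, adjusted p = 0.038 in edgeR). In both copies each induced library lay above each control, with replicate 3 the highest. The other called copies were SNORD116-17 at 1.01, SNORD116-13 at 0.83 and SNORD116-21 at 0.75, the last named because it was called and not by the rule for abundant snoRNAs.

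SNORD116 counts were small, with about 54 to 225 counts per library for the called copies, and the calls were fragile. None of the hosted snoRNAs was called without control replicate 1, 2 or 3 or without induced replicate 1, and 1 was called without induced replicate 2. Summed over the 29 tested genes, counted once per locus, the cluster stood at 11.1, 11.1 and 10.6 CPM in the controls and 17.6 and 18.4 CPM in induced replicates 1 and 2, with a mean of 18.6 ± 1.24 CPM over all 3 (SD) and the highest value in replicate 3. The log2 ratio of this sum to SNHG14 itself was -4.09 ± 0.06 (SD, n = 3) in the controls and -3.89 ± 0.07 in the induced libraries. The sum and the host row partly hold the same divided pairs. The tested snoRNAs of the locus outside the SNORD116 and SNORD115 families were SNORD107 at 0.51, SNORD64 at 0.32, SNORD108 at 0.56 and SNORD109A at 0.84, none of them called. The 49 SNORD115 genes, which lie downstream of SNORD116 and are known from brain, together reached at most 1.5 counts in a library, so a change in them was not detectable at this depth.

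**Figure D3:**
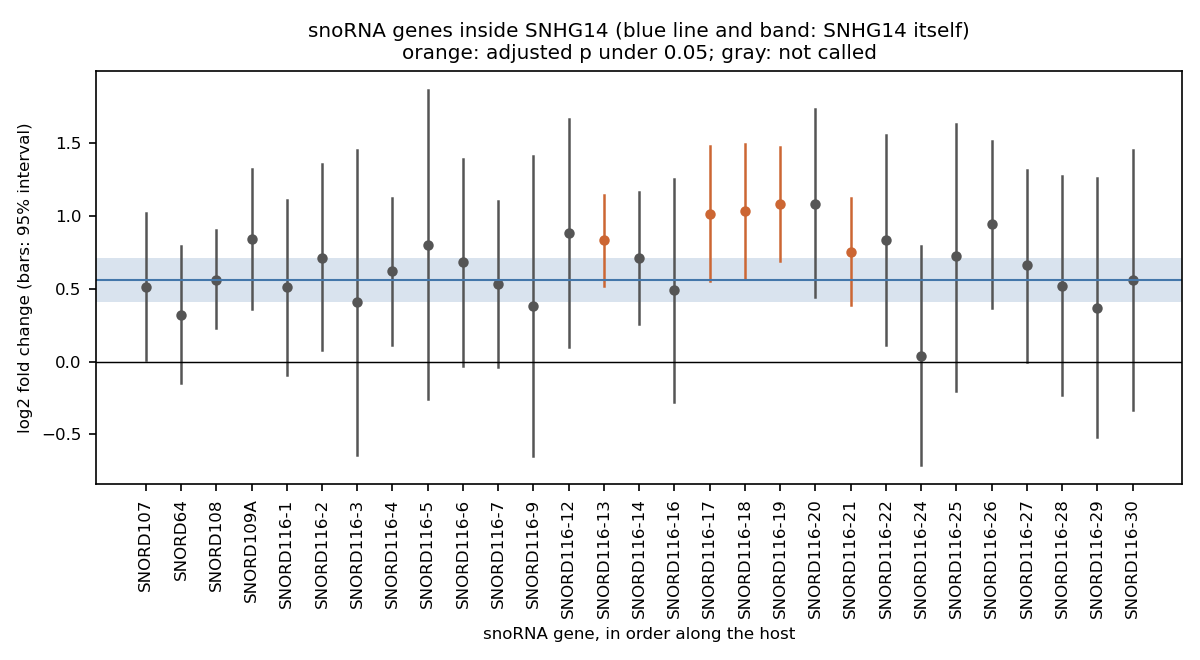
Log2 fold change (points) with 95% interval (bars) for the 29 tested snoRNA genes inside SNHG14, in their order along the host; orange marks an adjusted p under 0.05, and the blue line and band give the value and 95% interval of SNHG14. All points lie above 0, and the called copies (SNORD116-13, SNORD116-17 to SNORD116-19 and SNORD116-21) fall within the middle of the cluster, at 0.75 to 1.08.

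SNHG26, a gene on chromosome 7 with SNORD93 in an intron, had the highest fold change of the 28 without being called, and it is described because its values were seen to split the induced libraries. It stood at 12.5, 11.9 and 11.9 CPM in the controls and at 25.3, 25.5 and 11.9 CPM in induced replicates 1 to 3. Induced replicates 1 and 2 were thus far above the controls, and replicate 3 lay among them. The log2 fold change was 0.79 ± 0.26 (SE, adjusted p = 0.159 in edgeR). Without induced replicate 3 it was 1.08 (adjusted p = 0.00135 in edgeR), and DESeq2 on all libraries gave 0.80 (adjusted p = 0.0375). SNORD93 is a box C/D snoRNA of 74 bases, shown with its box D in capitals because it shares no exon bases with SNHG26, so that no base counted for both.
SNORD93 (chr7:22856613-22856686, plus strand, GRCh38): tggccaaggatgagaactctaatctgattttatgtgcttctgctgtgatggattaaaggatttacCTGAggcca

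SNORD93 was measured at 1.33, 1.33 and 1.44 CPM in the controls and at 2.92, 2.95 and 1.63 CPM in the induced libraries. The split between induced replicates was the same as in the host exons, high in replicates 1 and 2 and near the controls in replicate 3. Its log2 fold change was 0.86 (adjusted p = 0.0931 in edgeR), rising to 1.11 without induced replicate 3 (adjusted p = 0.00394 in edgeR). The log2 ratio of SNORD93 to SNHG26 was -3.10 ± 0.09 (SD, n = 3) in the controls and -3.00 ± 0.15 in the induced libraries.

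SNHG1 (ENSG00000255717.7, chr11:62851984-62855953, minus strand) hosts SNORD22 and SNORD25 to SNORD31, of which 7 loci were found inside it here, and was among the first genes described whose introns hold the product and whose exons have no coding function. It stood at 101, 97.6 and 102 CPM in the controls and 136, 123 and 103 CPM in the induced libraries. The groups did not overlap, but induced replicate 3 exceeded the highest control only slightly. The log2 fold change was 0.27 ± 0.10 (SE, adjusted p = 0.21 in edgeR), and without induced replicate 3 it was 0.37 (adjusted p = 0.0153 in edgeR). Its snoRNAs, summed, stood at 25.5, 24.0 and 25.4 CPM in the controls and 36.1, 38.3 and 21.7 CPM in the induced libraries. As in SNHG26, replicates 1 and 2 were high and replicate 3 was not. These snoRNAs lie in annotated exons of retained-intron transcripts and shared 21.0% to 31.2% of the SNHG1 counts. With those pairs taken out the fold change was 0.23 (adjusted p = 0.205 in edgeR).

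SLC3A2, the heavy chain of amino acid transporters, starts 51 bases from SNHG1 on the opposite strand. It stood at 40.0, 42.1 and 42.4 CPM in the controls and 72.8, 57.6 and 142 CPM in the induced libraries, with the highest value in the replicate in which SNHG1 was lowest among the induced (log2 fold change 1.13, adjusted p = 0.0878 in edgeR, not called). The order of the induced libraries for SLC3A2 was that of the stress markers. Of 11 tested markers of the integrated stress response, which slows translation and raises ATF4 targets, 3 were called higher (PHGDH, MTHFD2 and SLC7A11). All 11 had a fold change above 0, and 1.02% of all genes tested were called higher. Without control replicate 1, 2 or 3 or induced replicate 1 the number of stress markers called was 0, and without induced replicate 3 it was 6. The stress markers' summed level was 155 to 161 CPM in the controls and 474, 288 and 1396 CPM in induced replicates 1 to 3. SLC7A11 alone stood at 14.9 to 16.8 CPM in the controls and at 86.9, 46.3 and 414 CPM in induced replicates 1 to 3. The part of the stress markers in the SNHG26, SNHG1 and SNORD93 values was not tested.

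**Figure D4:**
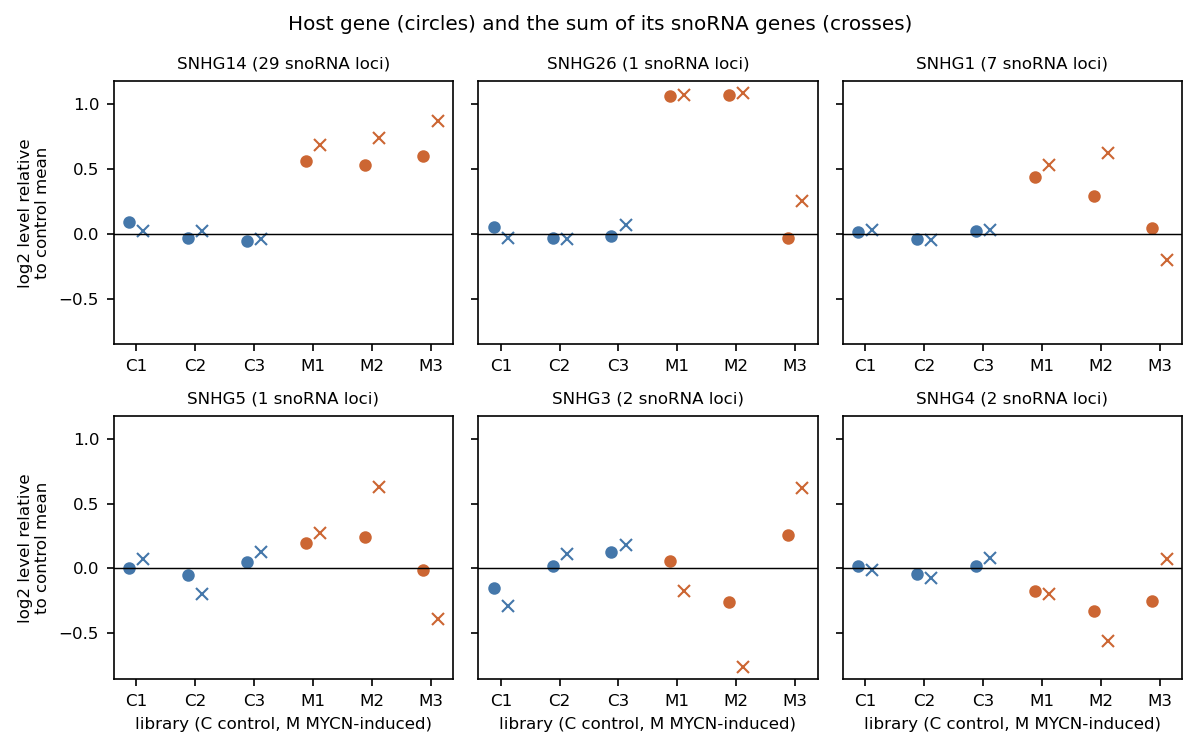
Level of 6 host genes (circles) and of the sum of their tested snoRNA genes (crosses) in each library, as log2 relative to the control mean with a pseudocount of 0.05 CPM; C1 to C3 are controls and M1 to M3 are MYCN-induced libraries. SNHG14 and its snoRNAs are high in all 3 induced libraries, SNHG26 and SNHG1 with their snoRNAs are high in M1 and M2 only, and in SNHG3 the crosses move further than the circles. In SNHG4 the cross moves clearly further only in M2 (-0.56, circle -0.33), and in M3 the circle is at -0.25 and the cross at 0.07.

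GAS5 (growth arrest specific 5) is an NMD-sensitive transcript known to accumulate when translation or growth stops. It was measured at 288, 271 and 288 CPM in the controls and 324, 290 and 343 CPM in the induced libraries. All induced values were above the controls, replicate 2 only just, and the log2 fold change was 0.18 ± 0.08 (SE, 95% interval -0.00 to 0.36, adjusted p = 0.269 in edgeR). The annotation used holds no snoRNA gene inside GAS5, so its snoRNAs were not analysed here. ZBTB37, which starts on the opposite strand near GAS5, was at -0.07 (adjusted p = 0.7 in edgeR). ZFAS1 hosts SNORD12, SNORD12B and SNORD12C. Its levels of 73.5, 67.0 and 72.4 CPM in the controls and 79.8, 71.6 and 73.4 CPM on induction overlapped (0.08, adjusted p = 0.621 in edgeR). EPB41L4A-AS1 hosts SNORA13 and shares 56.4% of its exon bases with EPB41L4A on the other strand, so without strand information their pairs cannot be told apart there. It stood at 22.8, 24.9 and 27.8 CPM and, on induction, at 23.5, 25.2 and 22.5 CPM (-0.08, adjusted p = 0.705 in edgeR).

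SNHG4 was the most negative of the well-measured host genes. It lies beside MATR3 and hosts the box H/ACA snoRNAs SNORA74A and SNORA74D. Its levels were 73.8, 71.1 and 73.7 CPM in the controls and 64.9, 58.0 and 61.1 CPM in the induced libraries. All induced values lay below the controls, and the log2 fold change was -0.25 ± 0.07 (SE, 95% interval -0.41 to -0.09), not called in edgeR (adjusted p = 0.0996). SNORA74D and SNORA74A both lie in introns of SNHG4. SNORA74D was at -0.17 and SNORA74A at -0.46, neither called (adjusted p = 0.614 and 0.296 in edgeR). MATR3, a nuclear matrix RNA-binding protein gene whose exons overlap SNHG4, was at 0.09 (adjusted p = 0.635 in edgeR).

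SNHG8, host of SNORA24, stood at 178, 171 and 188 CPM in the controls and 205, 211 and 198 CPM in the induced libraries, without overlap (0.19 ± 0.06, SE, adjusted p = 0.162 in edgeR). It shares 37.6% of its exon bases with PRSS12 on the opposite strand. PRSS12, a serine protease gene, was at 330, 315 and 322 CPM in the controls and 386, 397 and 390 CPM in the induced libraries and was called higher (0.28, adjusted p = 0.0457 in edgeR; up to 0.275, without control replicate 2). Pairs in the shared bases cannot be assigned to either gene without strand. SNORA24 was at 0.03 (adjusted p = 0.926 in edgeR).

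SNHG3 hosts SNORA73A and SNORA73B, long box H/ACA snoRNAs known for a role in early cleavage of the ribosomal RNA precursor. The host row stood at 251, 281 and 303 CPM in the controls and 289, 232 and 332 CPM in the induced libraries, with overlapping groups (0.03 ± 0.13, SE, adjusted p = 0.935 in edgeR). SNORA73A and SNORA73B together were at 188, 248 and 261 CPM in the controls and 205, 136 and 352 CPM in the induced libraries. They were the most abundant snoRNAs in these hosts and varied more among induced replicates than between the conditions, and the pairs shared with SNORA73A, which lies in an annotated SNHG3 exon, made up 26.5% to 53.8% of the SNHG3 counts. With those pairs taken out, SNHG3 was at 0.04 (adjusted p = 0.855 in edgeR). A like share was found in SNHG10, where SCARNA13 took 33.1% to 55.0% of the counts, and in SNHG12 (23.5% to 29.6%). In SNHG22 the pairs counted on SCARNA17 and a neighbouring scaRNA gene came to between 95.6% and 124% of the host's counts. A pair that covers both scaRNA genes enters this sum for each of them. The SNHG22 row thus held few pairs outside the scaRNAs. Its log2 fold change was 0.37 (adjusted p = 0.558 in edgeR), beside 0.40 for SCARNA17 (adjusted p = 0.549 in edgeR).

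SNHG16, first described as a non-coding RNA of aggressive neuroblastoma, carries SNORD1A, SNORD1B and SNORD1C. It was at 312, 296 and 289 CPM in the controls and 303, 288 and 313 CPM on induction, with overlapping groups. Its log2 fold change of 0.01 had a 95% interval of -0.14 to 0.16 (adjusted p = 0.942 in edgeR). SNHG29, host of SNORD49A and SNORD49B, was at 96.3, 95.5 and 98.9 CPM in the controls and 105, 92.8 and 137 CPM on induction, so the mean rested on replicate 3 (0.20, adjusted p = 0.47 in edgeR; 0.04 without that library). SNHG15, host of SNORA9, was the reverse, at 33.4, 32.7 and 35.6 CPM in the controls and 39.3, 40.8 and 31.6 CPM on induction (0.13, adjusted p = 0.562 in edgeR). SNHG6, host of SNORD87, was at 33.8, 36.8 and 38.5 CPM against 38.1, 40.4 and 40.9 CPM (0.13, adjusted p = 0.424 in edgeR). The short transcripts SNHG19 and SNHG25 were the least precise of the abundant ones, with SNHG19 between 2.65 and 7.16 CPM within the controls alone (-0.06 ± 0.35, SE) and SNHG25 at -0.17 ± 0.23.

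The 60 snoRNA and scaRNA genes in host genes other than SNHG14 were summarized apart from the SNHG14 cluster. Of the 53 tested, edgeR called 0 in either direction, against 3.4% of all genes, and the median log2 fold change was 0.047. At an unadjusted p under 0.05, 2 were higher and 0 lower, against 8.13% and 10.6% of all genes. Their median level relative to the controls was 0.156, 0.063 and -0.167 in induced replicates 1 to 3. Without replicate 3, 7 of them were called higher and 1 lower, against 3.68% and 4.44% of all genes in that fit (8.12% in all), which also called 3 host genes higher (SNHG14, SNHG26 and SNHG1). Whether the SNHG14 cluster and these snoRNAs differ in response was not tested.

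Protein-coding genes that carry snoRNAs were listed beside the non-coding hosts. Some of them, such as MATR3 (with SNHG4) and ENSG00000214265 (with SNHG14), share exon bases with a non-coding host and are not separate measurements. The list also holds readthrough genes beside a gene of the same locus, such as SENP3-EIF4A1 with EIF4A1 and PPAN-P2RY11 with PPAN. Its rows are thus not all separate genes. Of 181 protein-coding hosts, 174 were tested, 7 were called higher and 1 lower, and the median log2 fold change was 0.092. Over all genes tested, 1.02% were called higher and 2.38% lower. At an unadjusted p under 0.05 the list gave 36 higher and 4 lower, against 8.13% and 10.6% of all genes. The groups did not overlap for 57 of the 174 (32.8%), against 26.2% of all genes. Those called higher were ODC1 (0.56), the rate-limiting enzyme of polyamine synthesis and a textbook MYC target, EIF5 (0.45), a translation initiation factor, HSPA9 (0.51), a mitochondrial chaperone, IARS1 (0.56), the isoleucyl-tRNA synthetase, DKC1 (0.35), DGLUCY (0.37) and ENSG00000214265 in the SNHG14 locus (0.56). TRO was called lower (-0.38). With single libraries left out the number called higher ran from 0, without control replicate 2, to 19, without induced replicate 3. Of the 28 ribosomal protein genes in this list, 0 were called by edgeR, 2 were higher at an unadjusted p under 0.05 and 0 lower, and the median was 0.101.

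The proteins that bind and assemble snoRNAs were given by lists. Over all genes tested, edgeR called 1.02% higher and 2.38% lower, and 8.13% and 10.6% passed at an unadjusted p under 0.05. Of the 4 box C/D core proteins, edgeR called 0 (1 at an unadjusted p under 0.05), and FBL, the methyltransferase, was at -0.18 (adjusted p = 0.652 in edgeR). Of the 4 box H/ACA core proteins, DKC1, the pseudouridine synthase, was called higher. It stood at 128, 127 and 128 CPM in the controls and 161, 162 and 166 CPM in the induced libraries, a log2 fold change of 0.35 ± 0.06 (SE, adjusted p = 0.0208 in edgeR). The replicates of each group were close together, and the call was nevertheless lost when any control library or induced replicate 1 was left out, with fold changes of 0.34 to 0.37. NHP2 had the largest estimate of that list at 0.62, with a 95% interval of -0.09 to 1.33. Among the 11 assembly factors edgeR called 0, 5 were higher at an unadjusted p under 0.05, the median was 0.179, and RUVBL2 at 0.26 had the largest value. Of the 13 NMD factors edgeR called 0, also at an unadjusted p under 0.05, with a median of 0.039, and of the 5 exon junction complex proteins 0, with 1 at an unadjusted p under 0.05. DHX34 at 0.20 and MAGOH at 0.19 had the largest values in these lists.

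The sequence at the start of the host genes was compared with all promoters. RefSeq (GRCh38.p14) held a promoter for 27 of the 31, from 250 bases before to 50 bases after the start. The E-box CACGTG, the palindrome that MYC and MYCN bind with MAX, was present in 2 of 27 (7.41%, SNHG7 and SNHG30) and in 8.77% of 27305 promoters. The same search on both strands for the CRE palindrome TGACGTCA and for TGATGCAA, a composite element of ATF4 with a C/EBP partner, found 0 of 27, against 2.25% and 1.08% of all promoters. A run of at least 5 C or T bases from the start base was present in 7 of 27 (25.9%) and in 6.5% of all promoters. The windows below run from 20 bases before the start to 30 bases from it for the described host genes next in order of p after SNHG14, with the C/T run from the start in capitals, to show how the tract differs between them.
SNHG4 (chr5:139274081-139274130, plus strand): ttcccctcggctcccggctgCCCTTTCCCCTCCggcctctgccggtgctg
SNHG26 (chr7:22854220-22854269, plus strand): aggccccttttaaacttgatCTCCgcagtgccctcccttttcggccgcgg
SNHG8 (chr4:118278742-118278791, plus strand): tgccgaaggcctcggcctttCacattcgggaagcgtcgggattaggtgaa
SNHG1 (chr11:62855856-62855905, minus strand): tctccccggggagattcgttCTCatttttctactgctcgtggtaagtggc
GAS5 (chr1:173869016-173869065, minus strand): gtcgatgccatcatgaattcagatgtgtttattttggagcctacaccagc

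SNHG4 has a run of 13 bases, SNHG26 of 4, SNHG1 of 3 and SNHG8 of 1, while no run begins at the RefSeq start used for GAS5. From the gene start in the deposited counts, the RefSeq start lay 1 base away for SNHG4, 53 for SNHG8 and 68 for SNHG1. It lay 114 bases away for SNHG26 and 163 for GAS5, so the runs describe the RefSeq starts only. The RefSeq start lay within 20 bases of the start of the gene in the deposited counts for 9 of the 27, and for SNHG14 it lay 154975 bases upstream of it, so its window is not shown. A match or its absence describes these letters only.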

How the data were processed

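Per the labels, STAR 2.7.1a and featureCounts 1.5.1 on GRCh38 were used. The header of the counts that the authors deposited names featureCounts v1.6.4 on uniquely aligned pairs, counted over exons. Pairs that overlap several genes were divided equally, and no strand option is named. The methods state a strand option and an option that counts multiply aligned reads. The header was followed in both respects. The deposited values are estimated counts and were rounded to whole numbers. Symbols came from GENCODE release 44 by identifier (99.72% matched; 18 of the 31 host genes had the same coordinates). The 92 spike-in rows were 0 in every library, so levels are relative to each library's total. snoRNA genes inside a host, on the same strand, were found in that annotation.

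The test was the two-sided quasi-likelihood test of edgeR 4.0.16 under R 4.3.3, after TMM, on all 6 libraries without a block. edgeR's standard errors and 95% intervals come from the same fit, with a biological coefficient of variation of 0.153. Chi-square per gene between replicates was 11.2 to 136, so each library counted as 1 sample; the paper speaks of independent experiments, the labels do not, and p-values measure only the spread between these libraries. DESeq2 1.42.0 was an alternative, besides library size only, upper-quartile normalization, the replicate number as a block, dropping the count filter, raising it to 100 counts in each library, each library left out, and only members without shared exon bases. Removal of pairs shared with snoRNA genes was added after seeing the data. The tests were tried on simulated data.

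Members described in full were those called, the 12 highest in TPM, and GAS5, ZFAS1 and EPB41L4A-AS1 (14 in all). snoRNAs named were the 5 with most counts per such host, and from each list the called genes or that with the largest change. Exceptions are named as such, and the values of SNHG10, SNHG12, SNHG22 and the snoRNAs of SNHG26 were added after they were seen. Members and lists were chosen with earlier results of these data known. Lists of core, assembly, NMD, exon junction, stress and cell type marker genes were written from general knowledge. Some genes of these lists and neighbours are not reported here.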

Additional observations from a re-analysis of the deposited data

How the results depend on the processing

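The direction of SNHG14 was kept under all 13 alternatives (0.53 to 0.60). The host gene median stayed between 0.021 and 0.108 with single libraries left out, and was -0.003 over the only 2 tested members that share no exon bases, SNHG19 and SNHG31. That setting drops SNHG14 with its snoRNAs, so its 0 calls of host genes and 0 of snoRNAs follow from its construction. DESeq2 called 2 host genes, 8 of their snoRNAs, 12 higher and 2 lower protein-coding hosts, 2 snoRNP, NMD or exon junction genes and 6 stress markers. With at least 100 counts in every library 0 snoRNAs and 1 stress marker were called, with no count filter 5 stress markers, and with upper-quartile normalization 5 stress markers and 0 snoRNP, NMD or exon junction genes (also 0 by library size only). With single libraries left out, calls higher ranged from 0 to 3 for host genes, 0 to 13 for their snoRNAs (0 to 1 lower), 0 to 19 for protein-coding hosts (0 to 3 lower), 0 to 6 for the snoRNP, NMD and exon junction lists and 0 to 6 for stress markers. The highest count came without MYCN-induced replicate 3 in each case (3, 13, 19, 6 and 6). Fewer libraries were tested in these fits, and the cause of the differences was not tested otherwise. The same setting moved the calls over all genes from 298 to 1060 higher and from 692 to 1279 lower.

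With the replicate block, host genes still gave 1 higher call (SNHG14, adjusted p = 0.0194 in edgeR) and 0 lower, protein-coding hosts 4 higher and 0 lower, the snoRNP, NMD and exon junction lists 0, and all genes 265 higher and 575 lower. Same-numbered libraries correlated at 0.314, 0.0175 and 0.093 in their deviations from the group means, and 3 of the 6 libraries correlated best with their own number, so the numbers were not taken to pair them. Low counts limit the SNORD115 genes, SNHG18, SNHG27 and SNHG28.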
